A study of Mus musculus with 112 samples.

Results

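Heat shock and endoplasmic reticulum (ER) chaperone genes were compared between calorie-restricted (CR) and control mice in epididymal white adipose tissue (WAT). The set holds 10 listed genes, and each was read from the probe sets that the array's annotation assigns to that symbol alone, with the brightest one kept. Of the 10 genes, 9 were measured, among 19938 genes measured in this way in all. Hsp90ab1, the constitutive cytosolic Hsp90, had no probe set of its own symbol and was not analysed here. The measured genes were 5 cytosolic chaperones (Hspa8, Hsph1, Hsp90aa1, Dnajb1 and Hspb1), 3 ER chaperones (Hspa5, Hsp90b1 and Pdia4) and Xbp1, a transcription factor for ER chaperone genes.

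Molecular chaperones bind unfolded proteins and help them to fold, refold or be degraded. Cytosolic Hsp70, Hsp90, Hsp40 and small heat shock proteins are induced by heat shock factors, which bind arrays of inverted GAA units in the promoters of their targets. In the ER, an overload of unfolded protein is sensed by the unfolded protein response (UPR), whose factors ATF6 and spliced XBP1 raise ER chaperones. Adipocytes use the ER for secreted adipokines and for lipid synthesis.

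All samples were epididymal WAT of male mice taken at 22 weeks of age after an overnight fast, with 1 mouse per Affymetrix Mouse Gene 1.0 ST array. In each of 7 strains, 8 mice were on CR from 8 weeks of age and 8 were on the control diet, and all were housed singly. The strains were 129S1/SvImJ, C57BL/6J (C57BL6/J in the labels), the hybrid B6C3F1/J, C3H/HeJ, CBA/J, DBA/2J and BALB/cJ (Balbc/J in the labels). Rations were not the same in every strain: CR was deepened later in the experiment in 129S1/SvImJ and C57BL/6J, and BALB/cJ mice were fed more on both diets, so that their CR ration was that of control mice of the other strains.

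Of all 19938 genes, 4359 were higher and 4394 were lower on CR over the 7 strains at a limma adjusted p under 0.05, which is 21.9% and 22% of genes. The mean of 9 adipocyte markers, which check the tissue label, lay between 11.35 and 12.69 on CR arrays and between 12.34 and 12.77 on control arrays (log2 signal). A total of 16 of 56 CR arrays and 6 of 56 control arrays stood apart, by markers of the epididymis, the organ this fat is attached to, or by a principal component of the values within groups. They lay mostly in C57BL/6J (6 CR arrays), CBA/J (4 CR arrays) and DBA/2J (4 CR and 6 control arrays), and values without them are given where they bear on a result in these strains. Such values rest on 2 CR mice in C57BL/6J, 4 CR mice in CBA/J, and 4 CR and 2 control mice in DBA/2J. Of 9 adipocyte markers, 5 were lower on CR and 0 higher, with a median change of -0.11, and of 6 endothelium markers 3 were lower and 0 higher. Of 12 epididymis markers, 3 were higher on CR over strains and 0 lower. Of 6 mesothelium markers, 1 was higher and 1 lower. The median mesothelium change by strain ran from -0.80 in 129S1/SvImJ to 0.53 in B6C3F1/J. Macrophage markers also moved with diet, with 12 of 12 lower on CR, 0 higher and a median change of -0.85, and group means of 8.09 to 8.64 on CR against 8.47 to 10.02 on the control diet; the part of any of these cell types in the results was not tested. In tissue RNA, fewer cells of a type and less RNA per cell cannot be told apart.

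RefSeq promoter windows, from 250 bases before to 50 bases after an annotated start, were at hand for 7 of the 10 genes. They were searched on both strands for the heat shock element, taken as GAANNTTC or TTCNNGAA (2 units) and as the overlapping run of 3 such units, for the ER stress response element (CCAAT and CCACG with any 9 bases between them) and for TGACGTGG, a core of the sites of spliced XBP1. The 4 genes whose windows held a match are shown because they place both kinds of element in the same set of genes, with the matches in capitals and the sequence read 5′ to 3′ on the strand of the gene (GRCm38.p6). They are the Hsph1 window at chr5:149636266-149636565 on the minus strand, Hspb1 at chr5:135887669-135887968 on the plus strand, Hspa5 at chr2:34771840-34772139 on the plus strand and Hsp90b1 at chr10:86705395-86705694 on the minus strand.
Hsph1: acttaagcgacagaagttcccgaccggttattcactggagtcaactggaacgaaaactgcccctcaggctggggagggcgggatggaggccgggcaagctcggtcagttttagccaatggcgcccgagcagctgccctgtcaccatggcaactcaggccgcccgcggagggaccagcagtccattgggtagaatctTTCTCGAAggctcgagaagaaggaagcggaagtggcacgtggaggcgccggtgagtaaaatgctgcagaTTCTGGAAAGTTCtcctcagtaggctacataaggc
Hspb1: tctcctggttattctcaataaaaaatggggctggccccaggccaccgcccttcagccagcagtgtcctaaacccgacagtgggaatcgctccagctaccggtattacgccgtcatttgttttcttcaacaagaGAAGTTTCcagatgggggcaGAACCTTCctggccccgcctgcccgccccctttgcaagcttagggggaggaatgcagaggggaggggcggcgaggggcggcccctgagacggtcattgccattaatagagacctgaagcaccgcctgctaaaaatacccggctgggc
Hspa5: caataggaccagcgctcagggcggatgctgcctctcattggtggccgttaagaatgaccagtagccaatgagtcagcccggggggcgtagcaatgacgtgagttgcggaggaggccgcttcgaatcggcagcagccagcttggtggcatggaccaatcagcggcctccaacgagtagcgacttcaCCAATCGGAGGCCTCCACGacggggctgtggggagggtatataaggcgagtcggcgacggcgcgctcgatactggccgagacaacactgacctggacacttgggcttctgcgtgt
Hsp90b1: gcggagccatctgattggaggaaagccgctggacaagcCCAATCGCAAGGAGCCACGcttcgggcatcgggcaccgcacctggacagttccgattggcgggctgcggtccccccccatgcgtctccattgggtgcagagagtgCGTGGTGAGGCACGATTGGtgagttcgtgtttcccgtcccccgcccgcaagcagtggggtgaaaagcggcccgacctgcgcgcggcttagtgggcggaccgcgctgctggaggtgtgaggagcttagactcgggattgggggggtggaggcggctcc

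The Hsph1 window held 3 matches to the 2-unit element, and 2 of them overlapped to make the 3-unit element TTCTGGAAAGTTC. A second annotated start of Hsph1 lies so close that its window holds the same matches. The Hspb1 window held 2 separate 2-unit matches, GAAGTTTC and GAACCTTC. Hspa5 held 1 and Hsp90b1 held 2 matches to the ER stress response element, with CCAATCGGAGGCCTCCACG in Hspa5 and, in Hsp90b1, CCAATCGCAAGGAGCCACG and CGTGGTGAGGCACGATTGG, the second of which runs on the other strand. The 2-unit heat shock element occurred in 15.1% of all 32851 windows, the 3-unit element in 0.603%, the ER stress response element in 0.119% and TGACGTGG in 0.676%. The windows of Dnajb1, Pdia4 and Xbp1 held none of these letters, and no window of the set held TGACGTGG. A match describes the letters and does not show that a factor binds there.

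Over the 7 strains, CR lowered 4 of the 9 measured genes and raised 0 (0 also at an unadjusted p under 0.05). Hspb1, a small heat shock protein, Hspa8, the constitutive cytosolic Hsp70, Pdia4, a protein disulfide isomerase of the ER, and Xbp1 fell at an adjusted p under 0.05 (limma over 112 arrays). The background was 22% of all genes lower and 21.9% higher, and 32.9% lower and 34% higher among the 9969 genes above the median signal, where all 9 lie. By group, 2 of 5 cytosolic genes, 1 of 3 ER chaperones and Xbp1 fell. Median changes were -0.12 for the cytosolic genes and -0.07 for the ER chaperones, against 0.01 for all genes (log2). The other 5 genes did not pass the test, with changes between -0.12 (Hsph1) and 0.03 (Hspa5).

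**Figure D1:**
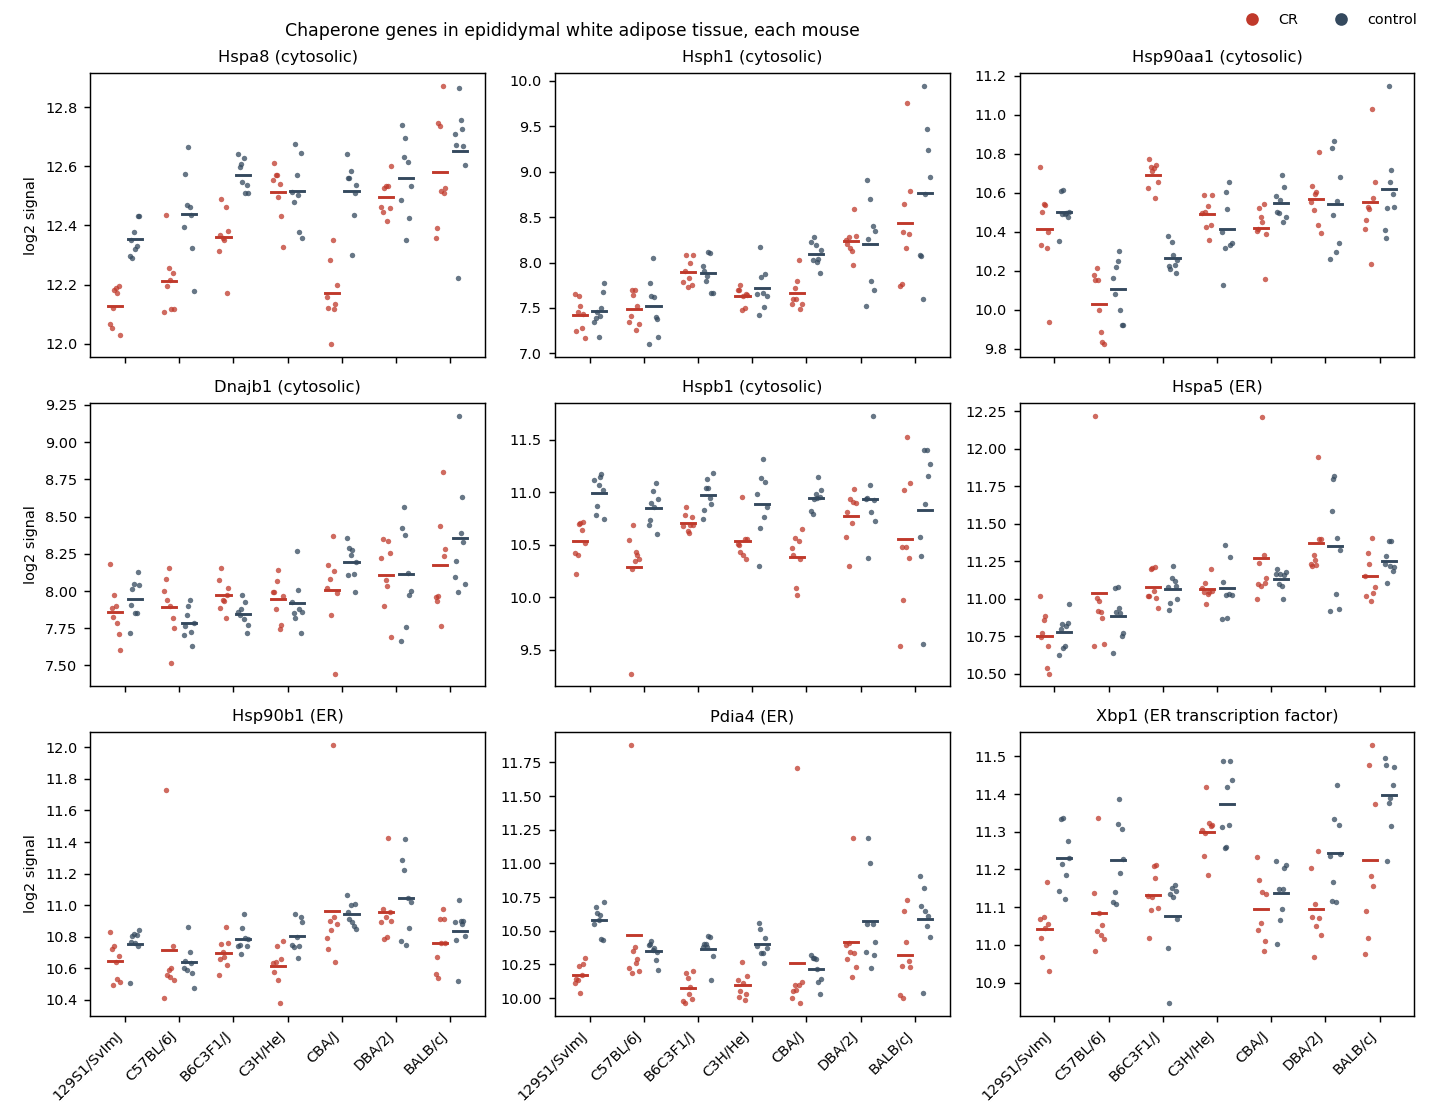
Log2 signal of the 9 measured genes in each of 112 mice, by strain (x axis), with CR mice in red on the left and control mice in dark blue on the right of each strain and a bar at the group mean (n = 8 each). Hspa8 and Hspb1 lie lower on CR in most strains, Hsp90aa1 is higher on CR in B6C3F1/J, and single CR mice of C57BL/6J, CBA/J and DBA/2J stand far above their groups in Hspa5, Hsp90b1 and Pdia4.

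Hspb1 showed the largest change of the set. This small heat shock protein holds unfolded proteins in a state from which Hsp70 can refold them. Over strains it fell by 0.38 ± 0.061 (SE), a ratio of 0.770 of CR to control signal (limma adjusted p = 9.6e-08), and its mean was lower on CR in 7 of 7 strains, with changes of -0.56 to -0.17. Only 5.61% of all genes had a larger mean change in either direction.

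Within strains, Hspb1 passed an unadjusted limma p under 0.01, the threshold of the study's methods, in 5 of 7 strains, and the adjusted threshold in 4. In CBA/J, CR mice had 10.02, 10.44 and 10.65 (lowest, median and highest log2 signal of 8 mice), against 10.79, 10.95 and 11.14 in control mice, a difference of -0.56 ± 0.086 (SE, limma adjusted p = 0.00013). In 129S1/SvImJ, CR mice had 10.22, 10.58 and 10.71, against 10.75, 11.05 and 11.18 in control mice (-0.45 ± 0.083, limma adjusted p = 0.00043). In both strains the groups did not overlap.

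In C57BL/6J the means were 10.29 ± 0.43 in CR mice and 10.85 ± 0.17 in control mice (SD, n = 8 each), and 7 of 8 CR mice lay below all control mice. The lowest, at 9.27, was a mouse that stood apart by its epididymis markers, and without the arrays that stand apart the change was -0.46 (limma adjusted p = 0.047, 2 CR mice left). B6C3F1/J changed by -0.26 ± 0.061 and C3H/HeJ by -0.36 ± 0.12, where the limma adjusted p was 0.0502 and the unadjusted p stayed under 0.01 in only 4 of 16 fits that left out 1 mouse each. The methods' t-test on the raw signal did not pass in C3H/HeJ, which leaves 4 strains.

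DBA/2J (-0.17 ± 0.15) and BALB/cJ (-0.27 ± 0.28) did not pass the test. In BALB/cJ, Hspb1 ran between 9.54 and 11.52 in CR mice and between 9.55 and 11.41 in control mice, the widest spread of the gene in any strain (SD 0.64 in each group). The 7 changes were not shown to differ (limma F-test adjusted p = 0.6), and the 2 probe sets of Hspb1 gave -0.38 and -0.38 over strains.

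Hspa8, which folds new proteins and strips clathrin from vesicles, fell by 0.16 ± 0.022 over strains (limma adjusted p = 4.2e-10), with lower means on CR in 7 of 7 strains. It passed p under 0.01 in 129S1/SvImJ, C57BL/6J, B6C3F1/J and CBA/J, and the adjusted threshold in the same 4.

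CR mice of 129S1/SvImJ had 12.03, 12.15 and 12.20 (lowest, median and highest), against 12.29, 12.34 and 12.43 in control mice. CR mice of B6C3F1/J had 12.17, 12.36 and 12.49, against 12.51, 12.57 and 12.64 in control mice. CR mice of CBA/J had 11.999, 12.15 and 12.35, against 12.30, 12.55 and 12.64 in control mice. The groups did not overlap in 129S1/SvImJ and B6C3F1/J, and in CBA/J 7 of 8 CR mice lay below all control mice.

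The differences were -0.23 ± 0.043 in 129S1/SvImJ, -0.21 ± 0.044 in B6C3F1/J and -0.35 ± 0.059 in CBA/J (limma adjusted p = 6e-04, 0.00104 and 0.00037). In C57BL/6J the change was -0.23 ± 0.068 (limma adjusted p = 0.029), and without the arrays that stand apart it was -0.32 ± 0.11 (adjusted p = 0.12, 2 CR mice left). C3H/HeJ showed -0.003 ± 0.056, DBA/2J -0.06 ± 0.059 and BALB/cJ -0.07 ± 0.091, none past the threshold.

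The size of the Hspa8 change differed between strains (F-test adjusted p = 0.0088), a call that was lost without CBA/J (0.11) or C3H/HeJ (0.053), the strains with the largest and the smallest change. The 3 probe sets of Hspa8 changed by -0.16, -0.17 and -0.21 over strains. The dimmest one followed the brightest between mice with r = 0.756, where the other one reached 0.98. The dimmest one missed p under 0.01 in C57BL/6J (-0.18 ± 0.084) and B6C3F1/J (-0.09 ± 0.068), so 2 of the 4 calls within strains rest on the brighter probe sets. Which of the 3 probe sets measures Hspa8 best cannot be told from the annotation.

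Hsp90aa1, the inducible Hsp90 that matures kinases and steroid receptors, did not change over strains at the threshold (0.02 ± 0.03, adjusted p = 0.57), but differed in its response between strains (F-test adjusted p = 0.00082). In B6C3F1/J its CR mice had 10.58, 10.72 and 10.77 (lowest, median and highest), against 10.19, 10.24 and 10.38 in control mice. The groups did not overlap, and CR raised the signal by 0.43 ± 0.04 (limma adjusted p = 2.8e-07).

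All 3 probe sets of the gene rose in B6C3F1/J, by 0.43, 0.43 and 0.51. None of the other 6 strains passed p under 0.01, with changes between -0.13 (CBA/J) and 0.08 (C3H/HeJ); without the arrays that stand apart Hsp90aa1 changed by -0.25 ± 0.11 in C57BL/6J and by 0.13 ± 0.14 in DBA/2J, neither past the threshold. Without B6C3F1/J the F-test no longer passed (limma adjusted p = 0.65) and the mean change was -0.04.

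B6C3F1/J is the hybrid of C57BL/6J and C3H/HeJ. On CR its mean of 10.69 lay above those of C57BL/6J (10.03) and C3H/HeJ (10.49), whereas on the control diet its mean of 10.27 lay between theirs, at 10.11 and 10.41. Dnajb1, an Hsp40 that hands clients to Hsp70, also had a higher mean on CR in this strain (0.13 ± 0.051, limma adjusted p = 0.062), short of the threshold.

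Hsph1, an Hsp110 that exchanges nucleotide on Hsp70, passed the test in CBA/J alone. CR mice of CBA/J had 7.48, 7.60 and 8.03, against 7.88, 8.09 and 8.28 in control mice, and 7 of 8 CR mice lay below all control mice (-0.43 ± 0.079, limma adjusted p = 0.00062). With 1 model for all strains, which shares 1 estimate of the spread, this call was lost. In BALB/cJ the change of -0.32 ± 0.32 was nearly as large but within the spread, with 7.75 to 9.75 in CR mice and 7.60 to 9.94 in control mice. Over strains Hsph1 changed by -0.12 ± 0.065 (adjusted p = 0.11), and the strains were not shown to differ (F-test adjusted p = 0.49). In DBA/2J it changed by 0.03 ± 0.17, and by 0.28 ± 0.21 without the arrays that stand apart. Dnajb1 passed in 0 of 7 strains, with changes of -0.19 (CBA/J) to 0.13 (B6C3F1/J) and -0.03 ± 0.041 over strains.

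Pdia4, which forms and rearranges disulfide bonds in the ER, fell by 0.18 ± 0.053 over strains (limma adjusted p = 0.0028). It passed in 3 of 7 strains. CR mice of 129S1/SvImJ had 10.04, 10.16 and 10.30, against 10.43, 10.60 and 10.71 in control mice, without overlap (-0.41 ± 0.053, limma adjusted p = 1.5e-05). CR mice of C3H/HeJ had 9.98, 10.08 and 10.27, against 10.26, 10.38 and 10.56 in control mice, and 7 of 8 CR mice lay below all control mice (-0.31 ± 0.054). B6C3F1/J changed by -0.29 ± 0.052.

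In C57BL/6J and CBA/J the mean of Pdia4 was higher on CR, by 0.12 ± 0.19 and 0.05 ± 0.19. A single CR mouse in each strain stood far above the rest, at 11.88 against 10.38 for the next in C57BL/6J and at 11.71 against 10.12 in CBA/J. These mice carried epididymis markers at a mean log2 signal of 11.48 and 11.45, where the medians of their CR groups were 5.88 and 5.64; the part of epididymis RNA in the result was not tested.

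Without the arrays that stand apart, Pdia4 changed by -0.12 ± 0.08 in C57BL/6J and by -0.16 ± 0.065 in CBA/J, was lower on CR in 7 of 7 strains, and fell by 0.23 ± 0.034 over strains (adjusted p = 1.1e-08). Without 129S1/SvImJ the adjusted p over the other 6 strains was 0.054. The second, dim probe set of Pdia4 (mean log2 signal 6.02) changed by -0.04 ± 0.041 over strains and by 0.13 ± 0.087 in 129S1/SvImJ, where the mean of both probe sets no longer passed.

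Hspa5 (BiP), the ER Hsp70 that also holds the UPR sensors inactive, did not pass the test over strains (0.03 ± 0.043, limma adjusted p = 0.66) or in any of 7 strains. Its changes ran from -0.10 (BALB/cJ) to 0.15 (C57BL/6J). In C57BL/6J, CR mice had 10.68, 10.91 and 12.22, against 10.64, 10.91 and 11.08 in control mice. The medians were alike, and the higher mean lay in the mouse richest in epididymis markers. It was not the only one, since these markers had a median of 5.88 in CR mice of C57BL/6J. In its control mice the median was 5.03 (4.86 to 5.21), and the part of epididymis RNA was not tested. In CBA/J, CR mice had 11, 11.12 and 12.21, against 10.996, 11.16 and 11.195 in control mice, and 3 of 8 CR mice lay above all control mice, the highest again by far. Without the arrays that stand apart the change over strains was -0.005 ± 0.031.

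Hsp90b1 (Grp94), the Hsp90 of the ER, changed by -0.07 ± 0.039 over strains (limma adjusted p = 0.17) and passed in C3H/HeJ alone. There, CR mice had 10.38, 10.64 and 10.77, against 10.66, 10.77 and 10.94 in control mice, and 6 of 8 CR mice lay below all control mice (-0.19 ± 0.059, limma adjusted p = 0.035). The call held in 11 of 16 fits that left out 1 mouse each. Without the arrays that stand apart, Hsp90b1 was lower on CR in 7 of 7 strains and fell by 0.11 ± 0.028 (adjusted p = 0.00063), and it also passed over the other 6 strains without C57BL/6J (adjusted p = 0.045).

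Xbp1, whose spliced product drives ER chaperone and secretory genes, fell by 0.10 ± 0.02 over strains (limma adjusted p = 9.4e-06), with lower means on CR in 6 of 7 strains. It passed within a strain in 129S1/SvImJ, where CR mice had 10.93, 11.05 and 11.17, against 11.12, 11.22 and 11.34 in control mice, and 7 of 8 CR mice lay below all control mice (-0.19 ± 0.047, limma adjusted p = 0.0051). In DBA/2J and C57BL/6J, 6 of 8 CR mice lay below all control mice, with changes of -0.15 ± 0.058 and -0.14 ± 0.061 that did not pass; without the arrays that stand apart they were -0.24 ± 0.1 and -0.20 ± 0.092, which did not pass either. B6C3F1/J was the exception, at 0.06 ± 0.048. The array reads the gene as a whole, so spliced and unspliced Xbp1 cannot be told apart.

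**Figure D2:**
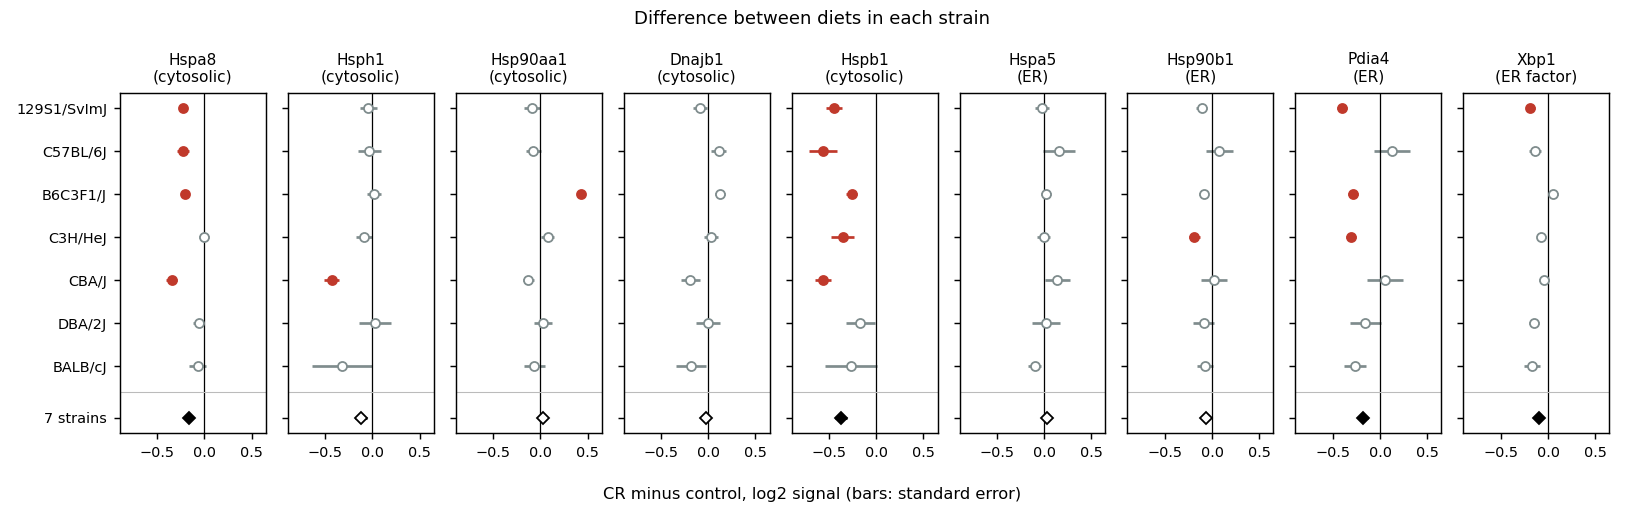
CR minus control log2 signal of each gene (1 panel per gene) in each strain, with the standard error of the limma fit; filled red points passed p under 0.01 within the strain, and diamonds give the mean over 7 strains, filled where the adjusted p was under 0.05. All filled red points lie below 0 except that of Hsp90aa1 in B6C3F1/J, at 0.43.

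Counted by strain, 129S1/SvImJ had 4 of 9 genes lower and 0 higher at p under 0.01, against 14.2% of all genes lower and 14.4% higher. C57BL/6J had 2 lower and 0 higher (7.82% and 9.8% of all genes), and 1 (Hspb1) without the arrays that stand apart. Without them CBA/J kept its 3 calls and DBA/2J still had 0, with only 4 CR and 2 control mice of DBA/2J left. B6C3F1/J had 3 lower and 1 higher (14.4% and 16.5%), C3H/HeJ 3 lower and 0 higher (7.44% and 9.26%) and CBA/J 3 lower and 0 higher (12.3% and 8.52%). In these strains, each fitted alone, the share of members that fell was above the share of all genes, on 9 genes. With 1 model for all strains, 0 members were called in C3H/HeJ and 2 in B6C3F1/J, where Hspa8 fell and Hsp90aa1 rose. In these 2 strains the higher share thus depends on the model. All 9 lie above the median signal, where over strains 32.9% of genes fell, against 22% of all genes. The set was also chosen with earlier results of these data known, so the comparison is no test of it. DBA/2J had 0 lower and 0 higher in limma (2.88% and 3.15%), and BALB/cJ likewise (0.958% and 0.627%); at an unadjusted p under 0.05 each had 1 lower, Xbp1 in DBA/2J and Pdia4 in BALB/cJ. Macrophage markers moved with these counts in part: their median change was -0.83 in 129S1/SvImJ, -0.71 in C57BL/6J, -1.46 in B6C3F1/J, -0.81 in C3H/HeJ, -1.61 in CBA/J, -0.51 in DBA/2J and -0.07 in BALB/cJ. Their part in the counts was not tested.

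The response of the members in BALB/cJ differed from the mean of the other 6 strains for 0 of 9 genes, against 3.25% of all genes, with limma adjusted p-values from 0.49 to 0.98 and 0 at an unadjusted p under 0.05. The response differed between strains for 2 of 9 genes, Hspa8 and Hsp90aa1, against 19% of all genes. With the filter to genes above the median signal the count was 3 and with array weights it was 5, so how it stands to the share of all genes depends on these settings.

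To set the cytosol against the ER, each gene was centred on its mean over all mice, and the 5 cytosolic and the 3 ER chaperones were averaged in each mouse. CR minus control averaged -0.13 for the cytosolic mean (SD over 7 strains 0.12, lower on CR in 6) and -0.07 for the ER mean (SD 0.12, lower on CR in 5). The difference between them, cytosolic minus ER, changed by -0.06 with an SD of 0.2 over strains, lower on CR in 3 strains and higher in 4. No test was made of this score, since its genes were chosen.

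CBA/J had the strongest shift towards lower cytosolic genes. Its cytosolic mean was -0.17 ± 0.12 in CR mice and 0.16 ± 0.052 in control mice (SD, n = 8 each), without overlap, while its ER mean was 0.09 ± 0.47 in CR mice and 0.02 ± 0.063 in control mice. The change of the difference was -0.40 in CBA/J and -0.28 in C57BL/6J, and -0.23 and -0.19 without the arrays that stand apart (4 and 2 CR mice left). B6C3F1/J went the other way, with a cytosolic minus ER value of 0.16 ± 0.08 in CR mice and 0.01 ± 0.035 in control mice, and 6 of 8 CR mice above all control mice. In 129S1/SvImJ both means were lower on CR by the same amount, at -0.18 each.

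Over all strains the change of the difference was -0.02 without the arrays that stand apart.

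**Figure D3:**
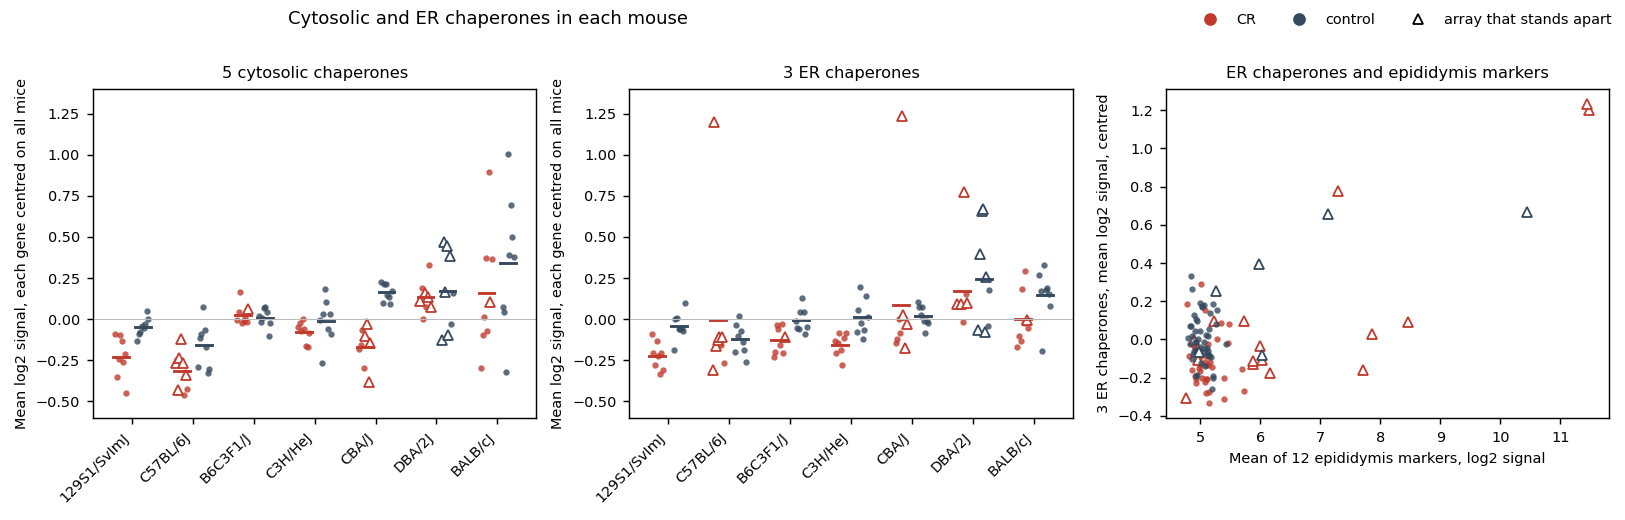
Mean log2 signal of the 5 cytosolic (left) and 3 ER chaperones (middle) in each mouse, each gene centred on all mice, with CR in red on the left and control in dark blue on the right of each strain, bars at group means and open triangles for arrays that stand apart. The right panel sets the ER mean against the mean of 12 epididymis markers (log2 signal): the CR mice of C57BL/6J and CBA/J at 11.48 and 11.45 have ER means of 1.20 and 1.23.

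Between mice of the same strain and diet, the ER chaperones varied together. After subtraction of group means, Pearson's r over 112 arrays was 0.793 to 0.875 for the 3 pairs of ER chaperones, with a median of 0.503 for the 10 cytosolic pairs and 0.366 for the 15 pairs across compartments. Without the arrays that stand apart, the ER pairs lay at 0.388 to 0.65, the cytosolic pairs at 0.326 to 0.733 and those across compartments at 0.067 to 0.581. The median Spearman rho was 0.667 for ER pairs, 0.342 for cytosolic pairs and 0.352 for pairs across compartments. These are descriptions of arrays that share their normalization.

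The closest cytosolic pair was Hsp90aa1 with Dnajb1 (r = 0.721, rho = 0.645). Xbp1 had r of 0.074 to 0.198 with the ER chaperones (0.15 to 0.413 without the arrays that stand apart) and its highest r with Hspb1 (0.481). The ER mean followed the epididymis markers with r = 0.756 but rho = 0.238, and r was 0.497 without the 2 most extreme mice, so part of that relation rests on them; the cytosolic mean had r = 0.068. Adipocyte markers ran with Hspb1 (r = 0.634) and against Hspa5 (r = -0.643), Hsp90b1 (-0.538) and Pdia4 (-0.536). Endothelium markers did likewise, with r of 0.384 for Hspb1, -0.649 for Hspa5, -0.627 for Hsp90b1 and -0.592 for Pdia4. Macrophage markers had r of 0.312 with Hspb1 and 0.3 with Hspa8. All these r values include mouse 2 of C57BL/6J and mouse 5 of CBA/J on CR, the richest in epididymis markers. Their adipocyte markers averaged 11.35 and 11.89, where the lowest control array lay at 12.34.

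The genes most like the ER chaperones across mice were Creld2 (r = 0.950), Pdia6 (0.929), Hyou1 (0.926), Calr (0.923) and Manf (0.915), which all encode ER-resident proteins. Without the arrays that stand apart, r was 0.799, 0.692, 0.686, 0.779 and 0.748 in the same order. Of these genes, Calr, the lectin chaperone calreticulin, fell by 0.15 ± 0.036 on CR over strains (adjusted p = 0.00018) and the other 4 did not pass. Those most like the cytosolic mean were P4ha1 (0.807), Trmt1l (0.674), P4ha2 (0.672), Hspa1a (0.671) and Hspa4l (0.664). P4ha1 and P4ha2, subunits of the collagen prolyl 4-hydroxylase, fell by 0.15 ± 0.043 and 0.12 ± 0.035 (adjusted p = 0.0023 and 0.0042), whereas Hspa1a, the stress-inducible Hsp70, changed by -0.17 ± 0.088 (adjusted p = 0.11). Without BALB/cJ, r was 0.61 for P4ha1, 0.693 for Trmt1l, 0.509 for P4ha2, 0.281 for Hspa1a and 0.57 for Hspa4l.

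On the control diet the level differed between strains for 7 of 9 genes (F-test adjusted p under 0.05), against 56.6% of all genes. Hspb1 and Pdia4 were the exceptions (adjusted p = 0.95 and 0.087). The Hsph1 means covered the widest range, with 7.47 ± 0.19 in 129S1/SvImJ, 7.52 ± 0.32 in C57BL/6J, 7.72 ± 0.23 in C3H/HeJ, 7.88 ± 0.18 in B6C3F1/J, 8.10 ± 0.13 in CBA/J, 8.20 ± 0.49 in DBA/2J and 8.76 ± 0.80 in BALB/cJ (SD, n = 8 each). Of the 6 steps in this order, only that from B6C3F1/J to CBA/J exceeded the larger SD of its neighbours.

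Control mice of BALB/cJ had the highest mean of Hspa8, Hsph1, Hsp90aa1, Dnajb1, Pdia4 and Xbp1, though the step to the next strain was within the larger SD for each. They were also fed more than control mice of the other strains, so strain and ration cannot be told apart for BALB/cJ. Hspa5 was lowest in 129S1/SvImJ (10.78 ± 0.11) and highest in DBA/2J (11.35 ± 0.37). Hsp90b1 was lowest in C57BL/6J (10.64 ± 0.11) and highest in DBA/2J (11.05 ± 0.25), the strain in which 6 of 8 control arrays stood apart.

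The members can be set beside other lists of chaperones and their partners, for which the background over all genes is 21.9% higher and 22% lower, and 34% and 32.9% among genes above the median signal. All 8 subunits of the CCT chaperonin, which folds actin and tubulin, rose on CR over strains, with a median of 0.24 and Cct3 (0.34 ± 0.04) and Cct6a (0.29 ± 0.025) first. Of 10 mitochondrial chaperones and proteases, 9 rose and 0 fell (median 0.33), among them Hspd1 (Hsp60, 0.50 ± 0.036) and Hspa9 (mortalin, 0.48 ± 0.034), both higher in 7 of 7 strains.

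Of 20 other heat shock proteins, taken as cytosolic though Hspa13 (0.16 ± 0.043, one that rose) is a microsomal Hsp70, 13 rose and 3 fell (median 0.10). Hspb7, a small heat shock protein of muscle, fell by 0.79 ± 0.084 and Dnajb4, an Hsp40, by 0.36 ± 0.033, while Dnaja4, another Hsp40, and Cryab, a small heat shock protein, rose by 0.31 ± 0.093 and 0.30 ± 0.05. Of 17 cochaperones of Hsp90 and Hsp70, 10 rose and 3 fell (median 0.12), with Bag1 (0.42 ± 0.042), a nucleotide exchange factor, and Fkbp4 (0.37 ± 0.038), an Hsp90-bound immunophilin, first. Of 3 genes measured on the list of heat shock factors, Hsf4 rose by 0.20 ± 0.027 and Hsf2 and Hsbp1 did not pass.

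**Figure D4:**
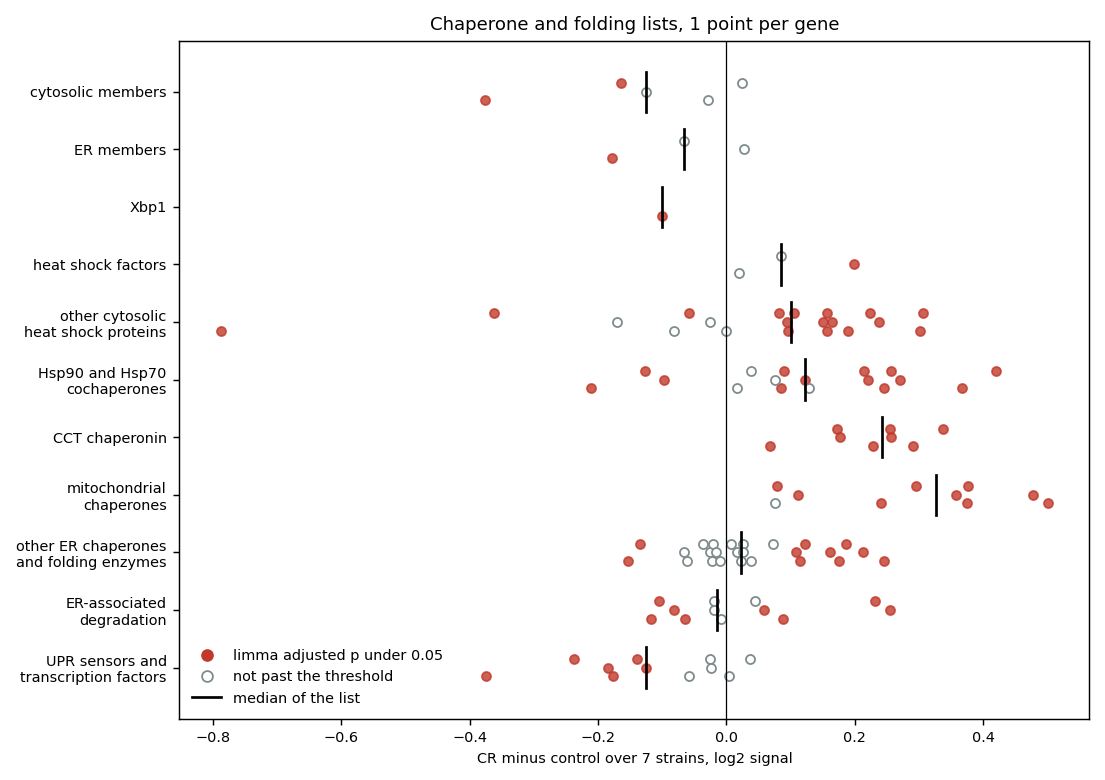
CR minus control over 7 strains (log2 signal, x axis) for each gene of the 9 members and 8 related lists, with filled red points past a limma adjusted p of 0.05 and a bar at the median of each list. The CCT chaperonin (median 0.24) and the mitochondrial chaperones (0.33) lie to the right. The list of UPR sensors and transcription factors (-0.13), which also holds Trib3, Ppp1r15a and Mbtps1, lies to the left.

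In the ER, 8 of 25 genes of chaperones, folding enzymes and protein entry rose and 2 (Calr and Pdia3) fell, with a median of 0.02, a share of risers near that among genes above the median signal. Of the 8, Sec61a1, Sec61b, Ssr1 and Srp19 serve protein entry into the ER, and Fkbp2, Dnajb9, Dnajb11 and Txndc11 are folding factors. Fkbp2, a prolyl isomerase, rose by 0.24 ± 0.029, Dnajb9, a cofactor of Hspa5, by 0.21 ± 0.042, Dnajb11, another such cofactor, by 0.19 ± 0.034, and Sec61a1, the channel of the translocon, by 0.17 ± 0.03. Of 12 genes of ER-associated degradation, 4 rose and 4 fell (median -0.01), shares near those among genes above the median signal. Vcp, the ATPase that extracts substrates, rose by 0.25 ± 0.021 and Derl1, a channel component, by 0.23 ± 0.027, while Edem2 and Os9, which recognise misfolded glycoproteins, fell by 0.12 ± 0.025 and 0.10 ± 0.018.

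The list of UPR sensors and transcription factors also held 2 of their targets (Trib3 and Ppp1r15a) and the protease Mbtps1. Of its 11 genes measured, 6 fell and 0 rose (median -0.13). Ern1, 1 of the 6, passed narrowly at -0.14 ± 0.06 (limma adjusted p = 0.0497), with lower means on CR in 4 strains and higher in 3. Creb3l2, a membrane-bound bZIP factor, fell by 0.38 ± 0.05, Atf4, the factor downstream of the PERK sensor, by 0.24 ± 0.024, Trib3, its target, by 0.18 ± 0.032, and Ppp1r15a (GADD34), which restores translation, by 0.18 ± 0.022. Creb3l2, Atf4 and Ppp1r15a were lower on CR in 7 of 7 strains and Trib3 in 6.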

How the data were processed

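The authors made log2 values with the Affymetrix Expression Console and gene-level RMA-Sketch, which corrects background, normalizes arrays to each other and summarises the probes of a set; these log2 values were used as deposited for 112 arrays, 14 groups of 8 mice. Array medians lay between 6.72 and 6.86, so differences are relative to the bulk of genes on an array; the arrays carry no depth, and the 8 mice per group limit the precision. Of 35556 probe sets, 21789 had 1 symbol in the platform annotation, 1621 had several and 12146 were not listed; those with 1 symbol gave 19938 genes, each read from its brightest probe set.

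A linear model with 14 groups was fitted in R 4.3.3 with limma 3.58.1 over all genes. The mean of the 7 differences, CR minus control, and F-tests of differences between strains were called at a Benjamini-Hochberg adjusted p under 0.05. Within each strain, 16 arrays were fitted alone and called at p under 0.01, the threshold of the study's methods, with adjusted p-values beside it. All p-values are two-sided, and SE are those of limma. An array was taken to stand apart where its mean of epididymis markers lay over 3 scaled median absolute deviations above the median of all arrays, or where 1 of the first 2 principal components of the values within groups lay over 4 from the median. The fits were tested on simulated data.

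The members and lists were chosen with earlier results of these data known. Genes named from a list are up to 4 past the threshold with the largest change, and the genes most alike are the 5 with the highest Pearson's r, over 112 arrays after subtraction of group means, with the mean of each group of chaperones. Promoter windows are those of RefSeq (GRCm38.p6). Other settings, given in the closing section, changed the normalization, filter, variance model, array weights, test, probe set, pairing, strains and arrays.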

Additional observations from a re-analysis of the deposited data

Results flagged for a closer look

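A mouse that lay far from the other 7 of its group (Dixon's test at the 95% level) was found in 21 of 140 groups, or 15%. The 140 are the 9 genes and the cytosolic minus ER score in the same 14 groups of mice. Chance gives about 1 in 20 groups, but these measures vary together, so 1 odd array counts several times and the rate is no test. Of the 21, 14 came from 3 CR mice, mouse 2 of C57BL/6J, mouse 5 of CBA/J and mouse 6 of DBA/2J. Their epididymis markers averaged 11.48, 11.45 and 7.30. Mouse 2 of C57BL/6J had a log2 signal of 12.434 for Hspa8, 9.272 for Hspb1, 12.222 for Hspa5, 11.731 for Hsp90b1 and 11.879 for Pdia4, and its cytosolic minus ER value was -1.628. Mouse 5 of CBA/J had 12.21 for Hspa5, 12.015 for Hsp90b1 and 11.71 for Pdia4, with a cytosolic minus ER value of -1.335. Mouse 6 of DBA/2J had 11.947 for Hspa5, 11.423 for Hsp90b1 and 11.19 for Pdia4, with -0.639.

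The other CR mice were mouse 7 of CBA/J for Hsp90aa1 (10.159), mouse 4 of C3H/HeJ for Hspb1 (10.95) and mouse 4 of C57BL/6J for Xbp1 (11.336). The control mice were mouse 3 of BALB/cJ for Hspa8 (12.222), mouse 4 of BALB/cJ for Hsp90aa1 (11.147), mouse 1 of 129S1/SvImJ for Hsp90b1 (10.504) and mouse 7 of B6C3F1/J for Pdia4 (10.132).

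The CR change differed between strains for Hspa8 (limma F-test adjusted p = 0.0088) and Hsp90aa1 (0.00082), as described for each gene.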

How the results depend on the processing

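Of 1035 repeats of the tests of single genes over strains and within strains, 947 kept their direction and their side of the threshold, 18 lost a call, 23 gained one and 47 turned in direction; each that turned was of a result not past the threshold. The variance model with trend and robust estimates and the analysis of variance without moderation changed 0 calls, and the filter to genes above the median signal changed 0 calls of single genes but gave 3 members that differed in response between strains in place of 2. Quantile normalization, array weights, leaving out the arrays that stand apart and leaving out C57BL/6J each gave 5 members lower over strains in place of 4, with Hsp90b1 added. Hspb1 in C3H/HeJ was lost with centred medians and with the methods' t-test on the raw signal. The causes of the changes were not tested. The dimmest Hspa8 probe set was tried after seeing the data.

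With 1 model for all strains the counts of members called were 2 in B6C3F1/J, 0 in C3H/HeJ, 1 in DBA/2J and 1 in BALB/cJ; Hspb1 and Pdia4 lost their calls in B6C3F1/J and C3H/HeJ, Hsp90b1 in C3H/HeJ and Hsph1 in CBA/J, and Xbp1 gained one in C57BL/6J, DBA/2J and BALB/cJ. With array weights, 5 members differed in response between strains, and 1 was called in DBA/2J and 1 in BALB/cJ. Quantile normalization gave 1 call in DBA/2J, and centring on medians, leaving out the arrays that stand apart or using the dimmest Hspa8 probe set gave 1 in C57BL/6J.

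Directions turned with array weights for Hsph1 (0.027) and Hspa5 (0.024) in 129S1/SvImJ, Hspa5 (-0.018), Hsp90b1 (-0.062) and Pdia4 (-0.059) in C57BL/6J, Hspa8 (0.013) and Hspa5 (0.032) in C3H/HeJ, Hsp90b1 (-0.064) and Pdia4 (-0.108) in CBA/J and Dnajb1 (0.144) in DBA/2J. Quantile normalization turned Hsp90aa1 (-0.004) and Hspa5 (-0.009) over strains, Hspa5 (-0.038) and Xbp1 (-0.001) in B6C3F1/J and Dnajb1 (0.017) in DBA/2J. Without the arrays that stand apart, Hspa5 over strains (-0.005), Dnajb1 (-0.154), Hspa5 (-0.078), Hsp90b1 (-0.074) and Pdia4 (-0.115) in C57BL/6J, Hsph1 (-0.012) in B6C3F1/J, Hspa5 (-0.025), Hsp90b1 (-0.129) and Pdia4 (-0.162) in CBA/J and Dnajb1 (0.144) in DBA/2J turned. In C3H/HeJ, Hspa8 turned with centred medians (0.017), the mean of probe sets (0.006) and its dimmest probe set (0.033), and Hspa5 with centred medians (0.014). The mean of probe sets turned Pdia4 in CBA/J (-0.024), and leaving out B6C3F1/J turned Hsp90aa1 over strains (-0.043).

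Leaving out 1 mouse at a time, 1 to 3 members were called in C3H/HeJ, 0 to 1 in DBA/2J and 0 to 1 in BALB/cJ. The changes spanned 0 for Hspa5 in 129S1/SvImJ (-0.066 to 0.008), Hsph1 (-0.091 to 0.045), Hspa5 (-0.017 to 0.203), Hsp90b1 (-0.069 to 0.12) and Pdia4 (-0.077 to 0.165) in C57BL/6J, Hsph1 (-0.018 to 0.048) and Hspa5 (-0.006 to 0.035) in B6C3F1/J, Hspa8 (-0.026 to 0.024) and Hspa5 (-0.036 to 0.034) in C3H/HeJ, and Hsp90b1 (-0.129 to 0.068) and Pdia4 (-0.159 to 0.091) in CBA/J. They also did so for Hsph1 (-0.068 to 0.13), Hsp90aa1 (-0.014 to 0.072), Dnajb1 (-0.067 to 0.061) and Hspa5 (-0.063 to 0.086) in DBA/2J and Hsp90aa1 (-0.134 to 0.01) in BALB/cJ. Pdia4 gained a call in CBA/J without CR mouse 5 (-0.159) and in BALB/cJ without control mouse 3 (-0.347), Xbp1 in C57BL/6J without CR mouse 4 (-0.177) and in DBA/2J without CR mouse 6 (-0.172), and Dnajb1 in B6C3F1/J without CR mouse 6 (0.149).

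Of pairs of mice with the same number, 18 of 56 deviated together with r over 0.1, and 1 to 5 of the 8 pairs in a strain. The highest r was 0.55, in BALB/cJ. Whether such mice shared more than the number cannot be told from the labels. With the replicate number as a block, 5 members were lower over strains in place of 4, Hsph1 being added (limma adjusted p = 0.043), and the counts within strains stayed at 4, 2, 4, 3, 3, 0 and 0 in the order of strains used above.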
